A study of Danio rerio with 32 samples.

Results

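Day 4 of culture was compared with day 0 in mononuclear myogenic cells of adult zebrafish dorsal muscle, on 10 of the series' 32 Affymetrix Zebrafish Genome Arrays. The arrays were all those labelled day 4 (A and B of array batch 1, and A, B, C and D of array batch 2) and all but one of those labelled day 0 (A of batch 1, and A, B and C of batch 2). Day 0 B of batch 1 was left out because its signals hardly followed those of any other array (highest Pearson correlation of log2 signals 0.17). The labels describe both days as days of differentiation, with expansion of the cells in a growth medium with fetal bovine serum and FGF and a differentiation medium with horse serum. The study's results also name day 0 the time of isolation, and how long the cells of the day 0 arrays had been plated is not settled by the sources used here. Each preparation pooled dorsal muscle of several skinned and gutted adult fish that was dissociated with collagenase and a neutral protease, passed over a Ficoll gradient and pre-plated on uncoated plates to remove the cells that attached first. The methods name an α-actin-RFP transgenic line, in which the promoter of a skeletal muscle actin drives a red fluorescent protein. The study names this line as the source of its array cells, and the wild-type AB strain for additional experiments. By the methods the cells were switched from growth to differentiation medium, low in serum, once nearly confluent. Days in culture and the change of medium therefore cannot be told apart, and the labels give no medium for single arrays. No mutation distinguished the days, and whether the letters mark separate preparations is not stated beyond being called biological duplicates, so the p-values may measure technical spread only.

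Satellite cells are the quiescent stem cells of skeletal muscle. Once freed from the fiber they enter the cell cycle, enlarge and build new ribosomes, and their Pax7-positive descendants express Myf5, MyoD and later myogenin before they fuse to myotubes filled with sarcomeres. Cells freshly released from tissue by enzymes commonly also carry transcripts of the immediate early response, in which genes of the Fos, Jun, Egr and Nr4a families of transcription factors are themselves induced within minutes of a stimulus by factors already present in the cell.

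All 4 day 0 arrays were labelled good, whereas 3 of the 6 day 4 arrays (B, C and D of batch 2) were labelled poor, so array quality and day were partly joined. The 3' to 5' signal ratio of the GAPDH control probe sets, which grows as RNA is shortened, was 2.43 at day 0 against 1.30 and 1.63 at day 4 in batch 1, and 3.42 to 8.57 at day 0 against 2.20 to 6.99 at day 4 in batch 2. The factor that scaled each array's mean signal was 23.41 at day 0 against 9.52 and 4.10 at day 4 in batch 1, and 2.36 to 5.78 against 2.29 to 5.00 in batch 2, so day 0 of batch 1 was dim before scaling. Median signals were 226 at day 0 against 141 and 215 at day 4 in batch 1, and 121 to 139 against 134 to 255 in batch 2. Day 0 arrays of batch 2 correlated at 0.97 with each other and at 0.78 to 0.79 with day 0 of batch 1, and the part of these differences in the results was not tested. The hybridization run (arrays that share a labelled hybridization day) was a block in the fit, and each of the 4 runs held both days. Within every run the GAPDH ratio was higher at day 0, so this measure of RNA shortening was joined with day. In batch 2 it was 3.42 at day 0 against 2.20 at day 4 in run 2, 8.06 against 6.99 and 5.74 in run 3, and 8.57 against 2.45 in run 4. The same ratio of the actin control probe sets was not higher at day 0 on every pair of arrays. It was 67.7 at day 0 against 7.23 and 95.1 at day 4 in run 1, and 26.5 against 15.4 and 39.3 in run 3. In run 2 it was 57.7 against 13.6, and in run 4 154 against 16.3. The part of either ratio in the changes was not tested.

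Of 15502 probe sets, 718 were higher (4.63%) and 981 lower (6.33%) at day 4 (limma, Benjamini-Hochberg adjusted p under 0.05), where p under 0.05 before adjustment gave 2052 and 1996. Over the 8793 genes that a probe set names, 568 were higher (6.46%) and 623 lower (7.09%), and 1163 of these 1191 genes moved the same way in all 4 runs. The genes were called by a fit of these same runs, which favors one sign, so this agreement is no independent check. The median change of all genes was 0.16 on the log2 scale. In 1074 genes (12.2%) the signals of the days did not overlap. Batch 2 alone gave 672 higher (7.64%) and 761 lower (8.65%) genes, and its probe sets numbered 816 and 1271. Each run held a single day 0 array, so leaving it out also took the day 4 arrays of that run out of the comparison of days. Without day 0 A of batch 1 the changes were therefore those of batch 2 alone. Without day 0 B of batch 2, and hence without day 4 B and C of its run, only 109 probe sets were higher and 296 lower. The numbers were 130 and 359 without day 0 C or day 4 D of batch 2, which share a run of their own, 344 and 610 without day 0 A or day 4 A of batch 2, and 471 and 784 without day 4 C of batch 2. The 7 arrays labelled good gave 175 and 284. Under the authors' scaling alone, 392 genes were higher and 449 lower, against 568 and 623. A test of whether the change differed between the batches called 0 of 15502 probe sets (0%), with 981 more positive and 881 more negative in batch 2 at an unadjusted p under 0.05.

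Every value of a named gene below is the quantile normalized signal of its brightest probe set, given for day 0 as A of batch 1 and then A, B and C of batch 2. Changes are differences of log2(signal + 32), day 4 minus day 0, given ± the standard error of the fit with limma's adjusted p, which is left out in lists where each gene named as higher or lower passed the threshold of 0.05. The offset of 32 holds back the change of dim genes, and signals of different genes are not comparable with each other. Some genes are counted in more than one gene list, so list counts are not independent of each other. Among them are cxcl12a (progenitor, inflammation and fibroblast lists), col1a2 and col6a3 (collagens and fibroblasts), and fn1a (matrix and fibroblasts). Further ones are egr2b (immediate early, nerve and glia), csf1b (leukocytes and growth factors) and ctsk (fibroblasts and lysosome). Gene list counts from all compared arrays stand against 6.46% higher and 7.09% lower of all genes, also where these shares are not repeated. Counts under other settings do not, since the number of all 8793 genes called changed with the setting. It was 133 higher and 193 lower on the arrays labelled good, and 82 and 198 without day 0 B of batch 2. It was 97 and 246 without day 0 C of batch 2, 392 and 449 under the authors' scaling, and 672 and 761 in batch 2 alone. Whether a list lost more calls than all genes did was not tested. Except for the M phase falls, rps27l among ribosomal proteins and gapdh among housekeeping references, each count of 4 or fewer called genes in a list lost calls when one array or run was left out.

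Among all genes that moved one way in every run, tnfaip6 rose most. It encodes a secreted protein that binds hyaluronan and is induced by inflammatory cytokines. Its signal was 591 in batch 1 and 602, 566 and 263 in batch 2 at day 0 and 2276 to 15135 (median 4452) at day 4. Every day 4 array exceeded every day 0 array, and the log2 change was 3.11 ± 0.42 (adjusted p = 0.0016). The next largest change was that of rps27l, a relative of a ribosomal protein gene. Its signal was 2557 in batch 1 and 909, 917 and 805 in batch 2 at day 0 and 5484 to 18212 (median 9466) at day 4, with a log2 change of 2.88 ± 0.30 (adjusted p = 0.00047). Batch 1 had the highest day 0 array for this gene, and the days still did not overlap. The rest of the 15 largest rises covered enzymes (psat1, phgdh, cbr1l, acat2, fdps), carriers (tcnbb for vitamin B12, slc1a4 for neutral amino acids), the RNA ligase rtcb, the thioredoxin txnb, the nonmuscle tropomyosin tpm4b, the mitochondrial protein fam210aa, kininogen (kng1) and serum amyloid A (saa), with log2 changes from 2.41 to 2.86. Only kng1 and saa of these 15 genes had overlapping days. The genes were picked for large changes called on these same arrays, which favors separate days.

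**Figure D1:**
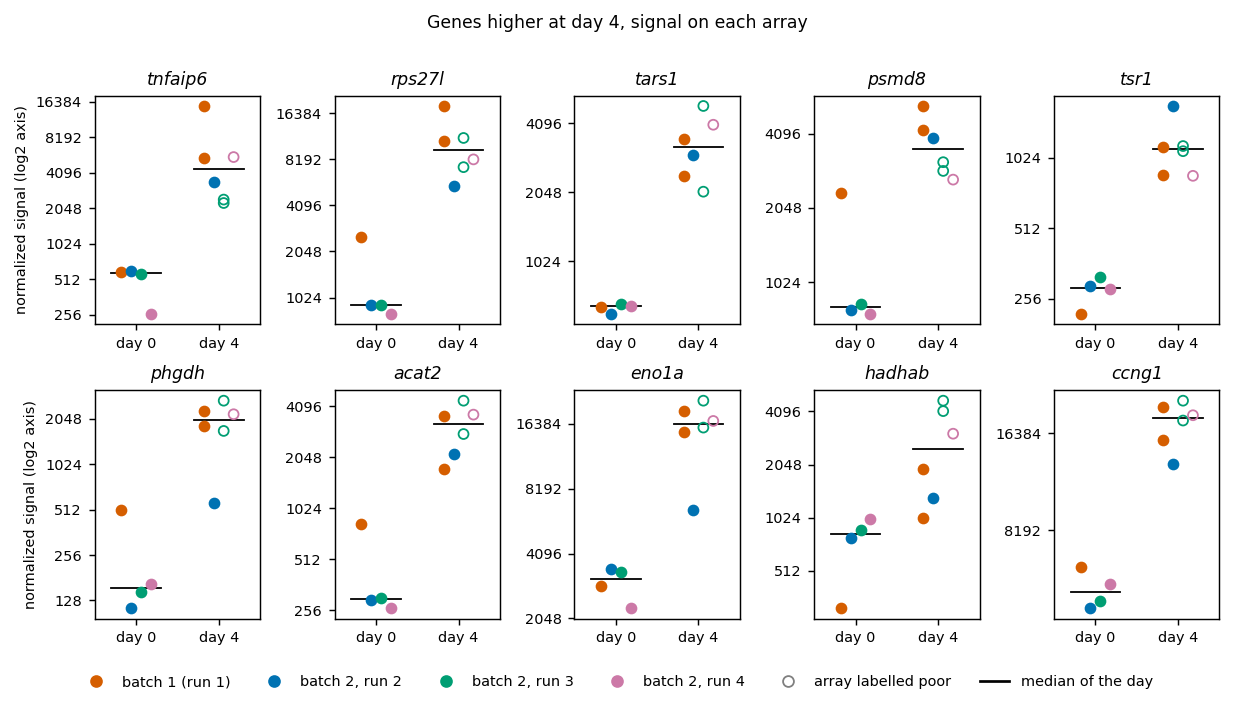
Quantile normalized signal (log2 axis) of 10 genes that were called higher at day 4, one point per array, colored by hybridization run, with open circles for arrays labelled poor and a bar at the median of each day. In all 10 panels each day 4 array lies above each day 0 array, and the day 0 array of batch 1 is the highest of its day for rps27l, psmd8, phgdh, acat2 and ccng1.

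Aminoacyl-tRNA synthetases, the enzymes that load each amino acid on its tRNA, rose as a set without exception: 17 of 17 measured genes were called higher, against 6.46% of all genes. Their median log2 change was 1.75, with medians of 1.52, 1.89, 1.56 and 1.89 in runs 1 to 4. The changes ran from 1.14 for the glutamine enzyme qars1 to 2.26 for the threonine enzyme tars1. For tars1 the signal was 645 in batch 1 and 605, 668 and 656 in batch 2 at day 0 and 2062 to 4883 (median 3227) at day 4, a log2 change of 2.26 ± 0.31 (adjusted p = 0.0016). The 4 day 0 values lay within a narrow band and far below each day 4 value. In addition, nars1 (asparagine, 2.21 ± 0.32), hars (histidine, 2.19 ± 0.27) and gars1 (glycine, 2.04 ± 0.25) were among the smallest p-values. All 17 genes were also called higher in batch 2 alone, against 7.64% of all genes. Batch 2 holds 7 of the same 10 arrays, so this is no independent check. Synthetases called higher numbered 11 without day 0 C or day 4 D of batch 2.

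Genes of serine synthesis and of the amino acid response rose beside them. The enzymes phgdh and psat1 carry out the first and second steps from 3-phosphoglycerate to serine. The phgdh signal was 510.2 in batch 1 and 114, 145 and 165 in batch 2 at day 0 and 563 to 2703 (median 2013) at day 4, and the log2 change was 2.78 ± 0.35 (adjusted p = 0.0012). For psat1 the values were 509 in batch 1 and 293, 283 and 344 in batch 2 at day 0 and 828 to 6195 (median 3221) at day 4, with a change of 2.86 ± 0.41 (adjusted p = 0.0021). Day 4 A of batch 2 was the lowest day 4 array of both genes and still stood above day 0. Asparagine synthetase (asns, 1.78 ± 0.43) and the mitochondrial folate enzyme mthfd2 (1.14 ± 0.29) rose as well. In the list of endoplasmic reticulum (ER) stress and amino acid response genes 8 of 38 were higher and 2 lower, the rises including the ER secreted factor manf (1.45 ± 0.33), the ER oxidase ero1a (2.14 ± 0.54), the disulfide isomerase pdia6 (1.21 ± 0.32) and the lectin chaperone calnexin (canx, 1.18 ± 0.32). The phosphatase subunit ppp1r15a, which reverses the stress block on translation, fell by 2.26 ± 0.45 (adjusted p = 0.0098) on the log2 scale, and the lipoprotein receptor vldlr by 1.79 ± 0.43 (adjusted p = 0.024). Genes of this list called higher numbered 2 without day 0 A of batch 1, day 0 B of batch 2 or day 0 C or day 4 D of batch 2, 3 on the 7 arrays labelled good and 5 in batch 2 alone.

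Many genes that make ribosomes rose, while a ribosomal protein gene passed the test in a single case. Of 74 genes of the nucleolus, RNA polymerase I and ribosome assembly, 24 were higher and 0 lower, with a median of 0.97. The signal of tsr1, a factor of small subunit maturation, was 221 in batch 1 and 289.8, 316 and 281 in batch 2 at day 0 and 856 to 1699 (median 1113) at day 4. No day 0 array reached the day 4 range, and the log2 change was 1.91 ± 0.27 (adjusted p = 0.0018). Other rises were pwp1 (1.72 ± 0.25), nol6 (1.71 ± 0.29) and the polymerase subunit polr1c (1.49 ± 0.26), and further the snoRNA methyltransferase fbl (1.35 ± 0.30), the nucleolar GTPase gnl3 (1.47 ± 0.34) and nucleophosmin (npm1a, 1.16 ± 0.29). Of 74 cytosolic ribosomal protein genes only rps27l was called, and the median of the list was 0.08, or -0.42 under the authors' scaling alone, where the median of all genes was 0.31. The median log2 signal of this list was 14.42 to 14.71 on the 10 arrays, against 8.60 to 10.49 for the nucleolar and assembly list. Whether genes this bright could show a change after quantile normalization was not tested. Nucleolar and assembly genes called higher numbered 37 without day 4 B of batch 1, 5 without day 0 A or day 4 A of batch 2, 6 without day 0 B of batch 2, 7 without day 0 C or day 4 D of batch 2 and 13 on the 7 arrays labelled good.

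Translation initiation factors were higher in 12 of 50 cases and lower in 0. These included all 5 subunit genes of eIF2B, the exchange factor that recharges eIF2 with GTP: eif2b1 (1.73 ± 0.26), eif2b2 (1.31 ± 0.27), eif2b3 (1.28 ± 0.28), eif2b4 and eif2b5 (1.28 ± 0.30). The GTPase eif5b, which joins ribosomal subunits, rose by 1.40 ± 0.27 (adjusted p = 0.0092). The eif2b4 signal was 236 in batch 1 and 425, 304 and 488 in batch 2 at day 0 and 950.0 to 1642 (median 1153) at day 4, and its change was 1.75 ± 0.27 (adjusted p = 0.003). Neither this gene nor the other subunits of eIF2B had overlapping days. Initiation factors called higher numbered 6 without day 0 A or day 4 A of batch 2, 2 without day 0 B of batch 2, 4 without day 0 C or day 4 D of batch 2 and 4 on the 7 arrays labelled good. Among 42 proteasome subunits, which form the particle that degrades ubiquitinated proteins, 22 were higher and 0 lower, against 6.46% and 7.09% of all genes, with a median of 1.20. Core subunits among them were psma2a (1.56 ± 0.30), psma8 (1.57 ± 0.31) and psmb2 (1.53 ± 0.30). The lid subunit psmd8 had signals of 2351 in batch 1 and 789, 835 and 765 in batch 2 at day 0 and 2667 to 5298 (median 3536) at day 4, with a change of 1.67 ± 0.28 (adjusted p = 0.0048). Day 0 of batch 1 lay between the low day 0 arrays of batch 2 and the day 4 arrays. The median of the whole list was 11.08 (log2 signal) on that array, between 9.69 and 9.81 on day 0 of batch 2, and between 11.07 and 11.66 on day 4. Proteasome subunits called higher numbered 5 without day 0 A or day 4 A of batch 2, 2 without day 0 B of batch 2, 1 without day 0 C or day 4 D of batch 2, 14 without day 4 C of batch 2, 7 on the 7 arrays labelled good and 13 under the authors' scaling.

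Sterol synthesis rose in 7 of 13 genes, and 0 fell (median 1.48). In pathway order the rises were the thiolase acat2, the HMG-CoA synthase hmgcs1 (2.19 ± 0.41), mevalonate kinase (mvk, 1.48 ± 0.30), farnesyl diphosphate synthase (fdps, 2.51 ± 0.41), the demethylation enzymes msmo1 (2.22 ± 0.28) and nsdhl (1.70 ± 0.38), and dhcr7 (1.95 ± 0.35), which completes cholesterol. The acat2 signal was 824 in batch 1 and 292, 302 and 263 in batch 2 at day 0 and 1733 to 4407 (median 3201) at day 4, a log2 change of 2.79 ± 0.39 (adjusted p = 0.0017). All day 4 values were above the day 0 values, the highest of which came from batch 1. Sterol genes called higher numbered 3 without day 0 B of batch 2, 4 without day 0 C or day 4 D of batch 2 and 3 on the 7 arrays labelled good.

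A part of the mitochondrial genes rose too. Of 82 genes of oxidative phosphorylation, 17 were higher and 1 was lower, 79 had a positive change, and the median was 0.69. Of all 8793 genes, 5231 had a positive change. Complex III was represented by cyc1 (1.23 ± 0.30) and uqcrc1 (1.15 ± 0.31), complex II by sdhdb (1.16 ± 0.28), complex IV by cox6b2 (1.12 ± 0.28) and ATP synthase by atp5mc3a (1.35 ± 0.38). The lower gene was cox4i2 (-1.33 ± 0.38), an isoform of a complex IV subunit. In the citric acid cycle and fatty acid oxidation 6 of 47 genes were higher and 0 lower. The trifunctional protein subunit hadhab, which carries long fatty acids through β-oxidation, had signals of 313 in batch 1 and 779.9, 867 and 1009 in batch 2 at day 0 and 1014 to 4715 (median 2497) at day 4, a change of 1.74 ± 0.33 (adjusted p = 0.0079). The 2 day 4 values nearest to day 0 were those of batch 1 A and batch 2 A, and the ranges nearly touched. Its partner hadhb changed by 1.30 ± 0.29 (adjusted p = 0.017), idh3a of the cycle by 1.15 ± 0.27 (adjusted p = 0.021) and the electron transfer enzyme etfdh by 1.17 ± 0.26 (adjusted p = 0.018). The assembly factor of complex I ndufaf1 (1.01 ± 0.25) rose as well. Oxidative phosphorylation genes called higher numbered 8 without day 4 A of batch 1, 2 without day 0 A or day 4 A of batch 2, 0 without day 0 B of batch 2 or day 0 C or day 4 D of batch 2, 7 without day 4 B of batch 2, 5 without day 4 C of batch 2, 0 on the 7 arrays labelled good, 1 under the authors' scaling, 6 with an offset of 16 and 27 with an offset of 64. Genes of the cycle and of fatty acid oxidation called higher numbered 0 without day 0 B of batch 2, 1 without day 0 C or day 4 D of batch 2, 0 on the 7 arrays labelled good and 10 with an offset of 64.

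Glycolysis and phosphocreatine genes changed in both directions. Of 37 genes 5 were higher and 7 lower. Higher were eno1a, the phosphofructokinase pfkpa (1.79 ± 0.29), the isomerase gpia (1.47 ± 0.36), the aldolase aldoaa (1.29 ± 0.35) and the mutase pgam1a (0.90 ± 0.25). The eno1a signal was 2899.6 in batch 1 and 3461, 3359 and 2283 in batch 2 at day 0 and 6542 to 20943 (median 16291) at day 4, and the change was 2.22 ± 0.33 (adjusted p = 0.0024). Lower were the muscle mutase pgam2 (-1.50 ± 0.31), the second aldolase A gene aldoab (-1.25 ± 0.31), both muscle creatine kinases and gapdh, as well as the mitochondrial creatine kinases ckmt1 (-1.73 ± 0.32) and ckmt2a (-1.10). The ckma signal was 5960.2 in batch 1 and 5827, 3395 and 4004 in batch 2 at day 0 and 107 to 2788 (median 446) at day 4, with a change of -3.19 ± 0.47 (adjusted p = 0.0024), and ckmb changed by -3.58 ± 0.47 (adjusted p = 0.0013). For ckma the highest day 4 value, that of batch 1 B, came close to the lowest day 0 value without reaching it. Commonly used as a reference, gapdh had signals of 5339 in batch 1 and 5874, 3466 and 5844 in batch 2 at day 0 and 177 to 1544 (median 758) at day 4 and changed by -3.04 ± 0.42 (adjusted p = 0.0017). It was the one gene called among 19 housekeeping references. Genes of the list called lower numbered 4 without day 0 A or day 4 A of batch 2 or day 0 B of batch 2, 2 on the 7 arrays labelled good and 4 under the authors' scaling. Those called higher numbered 2 without day 0 A of batch 1, day 0 B of batch 2 or day 0 C or day 4 D of batch 2, 3 without day 4 C of batch 2, 1 on the 7 arrays labelled good, 2 under the authors' scaling, 2 in batch 2 alone and 3 with an offset of 16.

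**Figure D2:**
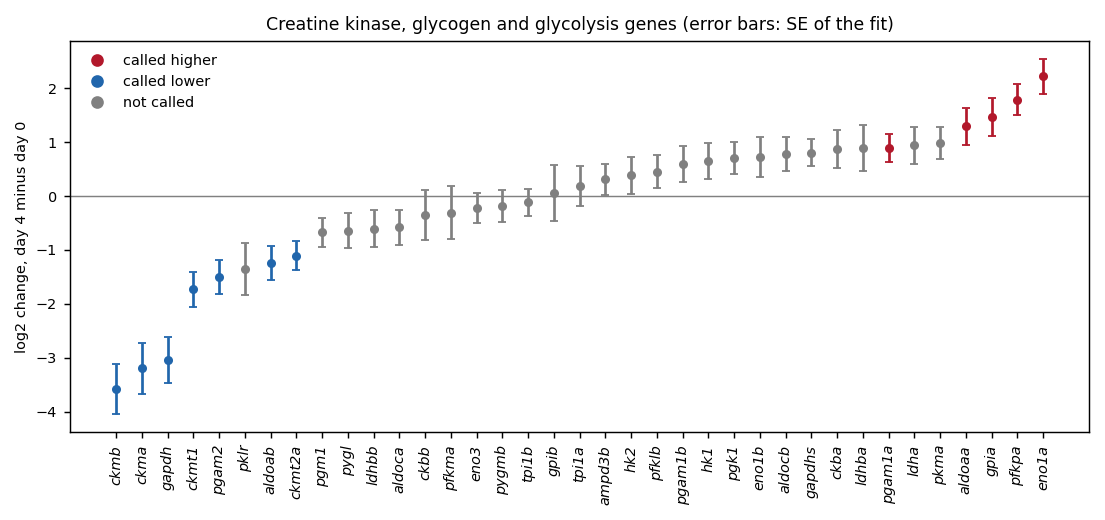
Log2 change from day 0 to day 4 with the standard error of the fit (vertical axis) for each of the 37 measured genes of the creatine kinase, glycogen and glycolysis list (horizontal axis), with called genes in color. The muscle creatine kinases ckmb and ckma and gapdh stand lowest, and eno1a highest at 2.22.

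Cytoskeleton and adhesion genes of spread cells were higher in 11 of 66 cases and lower in 4, against 6.46% and 7.09% of all genes. Their share of falls thus lay near that of all genes. Their median was 0.36, and 0.09 in batch 2 alone, where that of all genes was 0.21. The tropomyosin tpm4b, which decorates actin filaments of nonmuscle cells, had signals of 54.5 in batch 1 and 106, 157 and 178 in batch 2 at day 0 and 209 to 2915 (median 1518) at day 4 and a change of 2.72 ± 0.65 (adjusted p = 0.023). Day 4 A of each batch barely exceeded day 0, whereas the other day 4 arrays were severalfold higher. A second, dimmer probe set of tpm4b was not called. Integrin β5 (itgb5), a vitronectin receptor subunit, had signals of 232 in batch 1 and 437, 627 and 625 in batch 2 at day 0 and 750.3 to 3438 (median 1805) at day 4, a change of 1.87 ± 0.37 (adjusted p = 0.01) with no overlap. Rises were also called for the tubulin tuba1b (1.46 ± 0.29), calponin 3a (cnn3a, 1.17 ± 0.28), paxillin (pxna, 1.33 ± 0.35), α-actinin 1 (actn1, 1.12 ± 0.32) and the kinase ilk (1.10 ± 0.29). Vimentin (vim), the intermediate filament of mesenchymal cells, went the other way. Its signal was 2142 in batch 1 and 3314, 4871 and 5539 in batch 2 at day 0 and 123 to 1064 (median 352) at day 4, and it fell by 3.24 ± 0.49 (adjusted p = 0.0027). The days did not overlap for vim, and cofilin 1-like (cfl1l, -1.83 ± 0.50), coronin coro1b (-1.69 ± 0.42) and thymosin β (tmsb1, -1.54 ± 0.44), which bind actin, also fell. Genes of this list called higher numbered 4 without day 0 A of batch 1, 7 without day 0 A or day 4 A of batch 2, 1 without day 0 B of batch 2, 2 without day 0 C or day 4 D of batch 2, 5 without day 4 B of batch 2 or day 4 C of batch 2, 0 on the 7 arrays labelled good, 3 under the authors' scaling, 7 in batch 2 alone and 7 with an offset of 16. Those called lower numbered 1 without day 0 A or day 4 A of batch 2, day 0 B of batch 2 or day 0 C or day 4 D of batch 2, 2 without day 4 B of batch 2 or day 4 C of batch 2, 1 on the 7 arrays labelled good, 2 under the authors' scaling and 2 with an offset of 16.

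The largest changes were falls. Retinol-binding protein (rbp4), the carrier of retinol in blood plasma, had signals of 22138 in batch 1 and 34181, 30289.8 and 40254 in batch 2 at day 0 and 101 to 3106 (median 658) at day 4. It fell by 5.34 ± 0.61 (adjusted p = 0.00063) on the log2 scale, more than any other gene that moved one way in every run, with the 3 poor arrays lowest and every day 4 array far below day 0. The homeobox gene ved, a ventral repressor of the early embryo, had signals of 1071 in batch 1 and 3415, 3647 and 2167 in batch 2 at day 0 and 38.1 to 104 (median 47.7) at day 4. It fell by 4.68 ± 0.31 (adjusted p = 0.00012). The chemokine cxcl12a, ligand of the Cxcr4 receptors, had signals of 5570.4 in batch 1 and 6943, 9372 and 13479.9 in batch 2 at day 0 and 159.6 to 764 (median 219) at day 4. It fell by 4.56 ± 0.46 (adjusted p = 0.00039). Neither gene's days came near each other. The remaining 12 of the 15 largest falls were the aquaporin aqp8a.1, keratins krt15 and krt94, the secreted angptl7 and lgals3bp.1, the transporter slc16a9a, the calcium buffer pvalb9, cadherin cdh17 and collectrin cltrn (both known from kidney and gut epithelium), the methyl transfer enzyme bhmt and 2 genes without a given name, with changes from -4.08 to -4.61. All 15 had days that did not overlap, against 12.2% of all genes, and were called in batch 2 alone. They were picked as the largest changes called on these same arrays, so neither trait is an independent check.

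**Figure D3:**
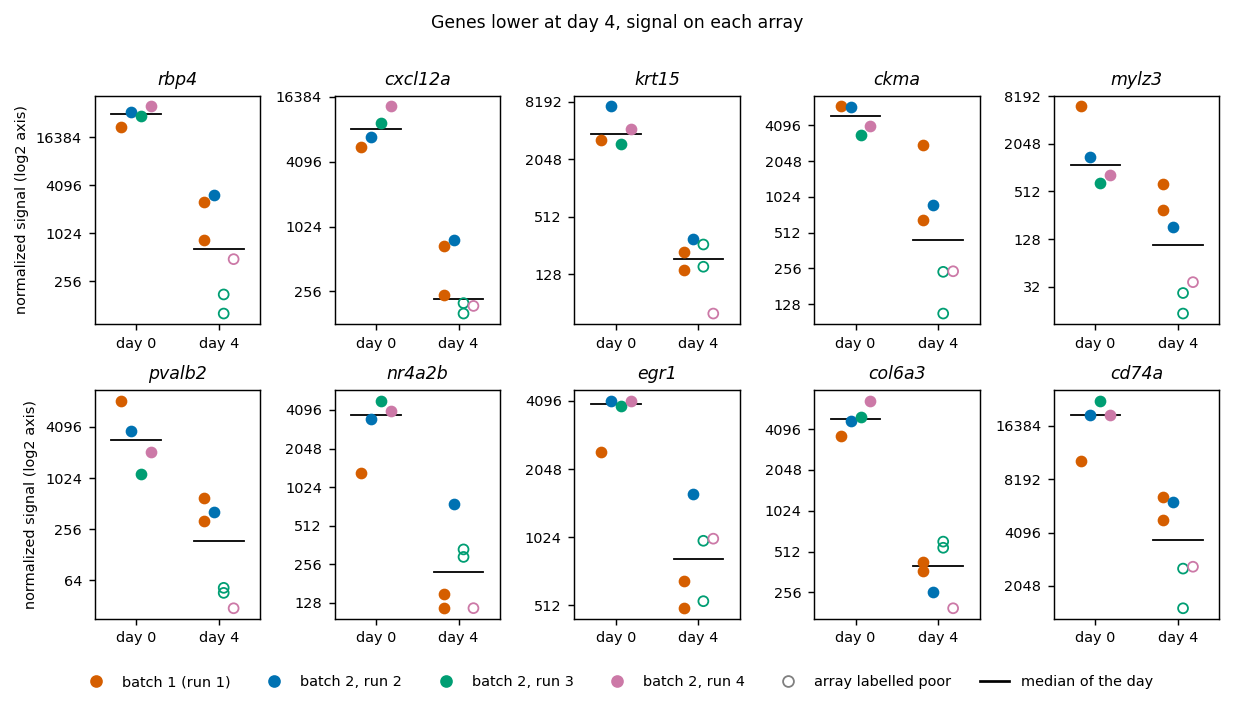
Quantile normalized signal (log2 axis) of 10 genes that were called lower at day 4, one point per array, colored by hybridization run, with open circles for arrays labelled poor and a bar at the median of each day. Each day 4 array lies below each day 0 array in all 10 panels, and for rbp4, cxcl12a, ckma, mylz3, pvalb2 and cd74a the 3 poor arrays lie below the 3 good arrays of day 4.

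Some transcripts of the mature fast muscle fiber were among these falls. Of 47 sarcomere and contractile protein genes 8 were lower and 0 higher. The list did not fall as a whole, since 17 changes were positive, against 5231 of all 8793 genes, and the median was -0.28. Its median change was 0.15 in run 1 and -0.52, -0.51 and -0.22 in runs 2 to 4. The summed signal was 27678 to 55334 at day 0 and 17599 to 66973 at day 4, so the days overlapped. The fast myosin light chain mylz3 had signals of 6139 in batch 1 and 1392, 651 and 819 in batch 2 at day 0 and 14.8 to 634 (median 109.8) at day 4. It fell by 3.48 ± 0.31 (adjusted p = 0.00023). Batch 1 was highest on both days, and the days did not overlap. Tropomyosin tpma had signals of 2415 in batch 1 and 1642, 1419.7 and 1087 in batch 2 at day 0 and 59.5 to 639 (median 194) at day 4. It fell by 2.79 ± 0.37 (adjusted p = 0.0013). The others were the light chains myl1 (-1.98 ± 0.27) and mylpfa (-2.63 ± 0.48), the fast troponins tnnt3b (-2.70 ± 0.51) and tnni2a.3 (-2.27 ± 0.44), the binding protein mybphb (-1.81 ± 0.30) and the actin actc1b (-2.13 ± 0.46), of which only myl1 did not overlap between days. Day 4 B of batch 1 was the highest day 4 array for tnnt3b, mylpfa and actc1b. Of 27 genes of the muscle membrane and of calcium handling 7 were lower, namely 5 parvalbumins (the cytosolic calcium buffers of fast fibers), myoglobin and the calcium pump gene atp2a1l, and the pump gene atp2a2b was the one that rose (1.11 ± 0.29). The pvalb2 signal was 8338 in batch 1 and 3617, 1141 and 2066 in batch 2 at day 0 and 29.9 to 599 (median 186) at day 4, and the change was -4.03 ± 0.34 (adjusted p = 0.00023). The other parvalbumins changed by -4.25 ± 0.48 (pvalb9), -3.62 ± 0.39 (pvalb3), -3.04 ± 0.37 (pvalb4) and -2.62 ± 0.51 (pvalb1), and myoglobin (mb) by -3.15 ± 0.38 (adjusted p = 0.00089). On the 3 poor arrays of day 4, ckma, mylz3 and pvalb2 had their lowest signals, and on the 7 arrays labelled good their changes were -2.18 (adjusted p = 0.059), -2.88 (adjusted p = 0.019) and -3.13 (adjusted p = 0.025). Parvalbumin genes resemble each other, and how far their probe sets share transcripts was not tested. Sarcomere genes called lower numbered 4 without day 0 B of batch 2, 3 on the 7 arrays labelled good and 13 in batch 2 alone.

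Genes of the immediate early response held the highest share of falls of the 37 gene lists, 33 of 56 lower (7.09% of all genes) and 1 higher, with a median of -1.49. The nuclear receptor nr4a2b had signals of 1314 in batch 1 and 3487, 4841 and 4043 in batch 2 at day 0 and 116 to 761 (median 222) at day 4. It fell by 3.44 ± 0.37 (adjusted p = 0.00047). Day 4 A of batch 2 was the highest of its day and day 0 of batch 1 the lowest of its own. The zinc finger factor egr1 had signals of 2436 in batch 1 and 4109, 3897 and 4079 in batch 2 at day 0 and 496 to 1587 (median 819) at day 4. It fell by 1.98 ± 0.30 (adjusted p = 0.0025). The antiproliferative gene btg2 had signals of 7689.5 in batch 1 and 12569.9, 12569.9 and 19212 in batch 2 at day 0 and 892 to 3593 (median 1878) at day 4. It fell by 2.71 ± 0.38 (adjusted p = 0.0017). Days did not overlap for these 3 genes. The AP-1 subunits fosab (-2.30 ± 0.40), jun (-2.32 ± 0.42) and junba (-1.50 ± 0.28), the glucocorticoid-responsive klf9 (-3.10 ± 0.64), the clock gene per2 (-2.34 ± 0.35), egr2b (-2.20 ± 0.33) and the cytokine signal inhibitor socs3a (-2.51 ± 0.39) fell as well. The exception was fosl1b, a further AP-1 subunit, with a change of 1.77 ± 0.47 (adjusted p = 0.036) and overlapping days. The median change of the list was -0.98 and -0.94 in runs 1 and 2 and -2.19 and -2.01 in runs 3 and 4, which hold the poor day 4 arrays. Immediate early genes called lower numbered 7 without day 0 B of batch 2, 12 without day 0 C or day 4 D of batch 2 and 8 on the 7 arrays labelled good.

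Among 53 heat shock proteins and chaperones 7 genes were higher and 5 lower, against 6.46% and 7.09% of all genes, with a median of 0.18. The share of falls lay near that of all genes. Higher were the mitochondrial chaperonin hspd1 (1.56 ± 0.28), its lid hspe1 (1.24 ± 0.25), mitochondrial hspa9 (1.20 ± 0.30), the cytosolic chaperonin subunits tcp1 (1.30 ± 0.26), cct4 and cct5 (1.14 ± 0.26), and dnajb11 of the ER. Lower were the cochaperone dnajb1b (-2.51 ± 0.42), hsp70.3 (-1.71 ± 0.43), hsc70 (-1.64 ± 0.38), hsp90aa1.2 (-2.08 ± 0.52) and the immunophilin fkbp5. A second, dimmer hsc70 probe set changed by 0.29 and was not called. In run 2 the change of hsp90aa1.2 was 0.44, while the other runs had falls. Chaperone genes called higher numbered 4 without day 4 A of batch 1 or day 4 C of batch 2, 3 without day 0 A or day 4 A of batch 2, 0 without day 0 B of batch 2, 1 without day 0 C or day 4 D of batch 2, 1 on the 7 arrays labelled good and 1 under the authors' scaling. Those called lower numbered 2 without day 0 A of batch 1 or day 4 C of batch 2, 1 without day 0 B of batch 2 or day 0 C or day 4 D of batch 2, 3 without day 4 B of batch 2, 1 on the 7 arrays labelled good and 3 under the authors' scaling.

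Among cell cycle inhibitors and genes of quiescence 11 of 27 were lower and 2 higher. The falls included the antiproliferative genes tob1a (-2.27 ± 0.29) and tob1b (-1.96 ± 0.43), klf2b (-2.17 ± 0.38), a factor that holds lymphocytes quiescent in the mouse, and gadd45ba (-1.76 ± 0.36), and btg2 and klf2b are counted among the immediate early genes too. The 2 rises were ccng1 and mdm2. The cyclin G1 gene ccng1 had signals of 6302 in batch 1 and 4688, 4945 and 5594 in batch 2 at day 0 and 13203 to 20695 (median 18302) at day 4 and rose by 1.67 ± 0.26 (adjusted p = 0.0029) without overlap. The ubiquitin ligase mdm2, which degrades p53, changed by 1.31 ± 0.27 (adjusted p = 0.012). Outside this list, phlda3 changed by 2.21 ± 0.43 (adjusted p = 0.0094). Activity of p53 was not tested. Inhibitor genes called lower numbered 7 without day 0 A or day 4 A of batch 2, 2 without day 0 B of batch 2, 3 without day 0 C or day 4 D of batch 2 and 2 on the 7 arrays labelled good.

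Genes of cell division gave different pictures in the 2 batches. Over both batches 0 of 58 M phase genes were higher (8 at an unadjusted p under 0.05) and 2 lower, although 54 changes were positive with a median of 0.53. Of all 8793 genes, 1499 were higher at that unadjusted p and 5231 had a positive change. In batch 2 alone 26 were higher, against 7.64% of all genes, and 2 lower. The median log2 signal of the list was 10.24 on day 0 of batch 1 and 8.89 and 9.79 on day 4 of batch 1. On day 0 of batch 2 it was 7.18 to 7.27, and on day 4 of batch 2 8.07 to 8.89. Day 0 of batch 1 thus had the highest level and day 0 of batch 2 the lowest, with all day 4 arrays between. The mitotic kinase gene cdk1 shows it, with 2439 in batch 1 and 126, 153 and 202 in batch 2 at day 0, 1187 and 1406 on day 4 of batch 1, and 325, 675, 437 and 577 on day 4 of batch 2. In batch 2 cdk1 changed by 1.42 ± 0.32 (adjusted p = 0.019), the cyclin ccnb1 by 1.65 ± 0.33 (adjusted p = 0.012) and the kinase plk1 by 1.95 ± 0.31 (adjusted p = 0.0039). The difference between batches had an unadjusted p under 0.05 in 41 of the 58 genes, all more positive in batch 2, where 7.77% of all genes passed it in that direction, and 0 passed the adjusted threshold. Batch 1 holds a single usable day 0 array, so its own spread at day 0 is not measured.

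Genes of DNA replication behaved alike, with 0 higher and 0 lower of 59 over both batches (7 and 0 at an unadjusted p under 0.05). In batch 2 alone 10 were higher, against 7.64% of all genes. Of all 8793 genes, 1499 were higher and 1153 lower at that unadjusted p over both batches. Their median change was -0.82 in batch 1 and 0.50 to 0.93 in the runs of batch 2. The sliding clamp gene pcna changed by 0.54 ± 0.40 (adjusted p = 0.43). On the 7 good arrays the median of the S phase list was -0.15 and that of the M phase list 0.06. The 2 lower genes of the M phase list were stmn1b (-2.34 ± 0.39), a tubulin binding protein that neurons also express, and kif20a (-2.78 ± 0.43), a kinesin of cytokinesis whose second, dimmer probe set changed by 0.34 and was not called.

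**Figure D4:**
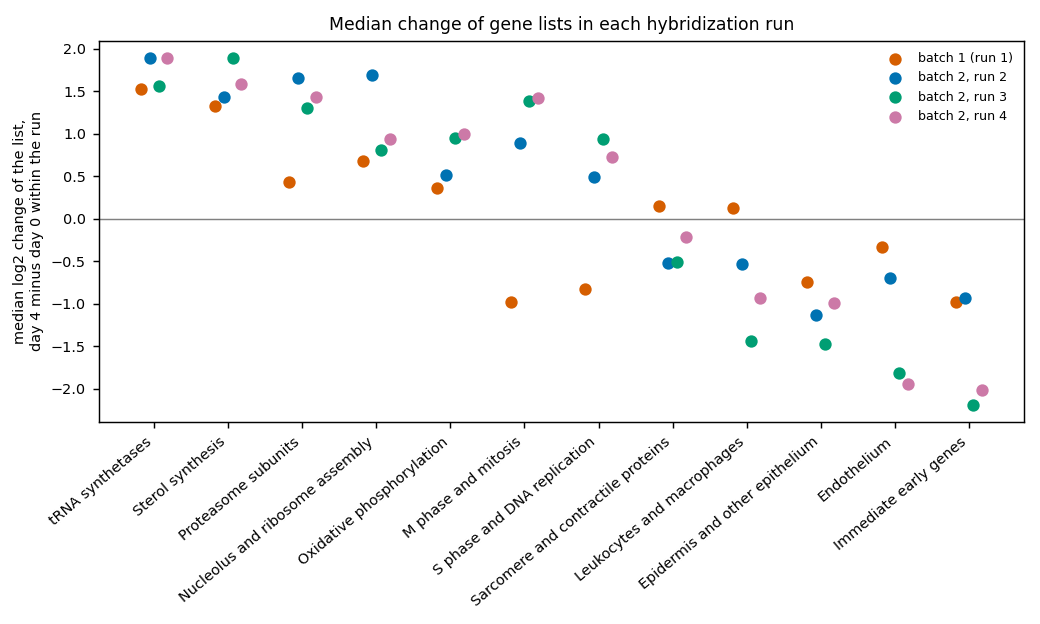
Median log2 change from day 0 to day 4 (vertical axis) of 12 gene lists (horizontal axis), computed within each hybridization run and colored by run. The M phase and S phase lists are negative in batch 1 at -0.98 and -0.82 and positive in all 3 runs of batch 2, whereas the synthetase, sterol, epidermis, endothelium and immediate early lists have one sign in all 4 runs.

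The genes by which the study follows myogenesis did not pass the test in this step, except cxcr4a. Of 21 myogenic transcription factors 0 were higher and 0 lower, with 2 and 1 at an unadjusted p under 0.05 and 1 lower in batch 2 alone. Of all 8793 genes, 1499 and 1153 passed that unadjusted p, and 8.65% were lower in batch 2 alone. The satellite cell gene pax7a had signals of 117 in batch 1 and 38.8, 97.4 and 104 in batch 2 at day 0 and 35.3 to 168 (median 77.2) at day 4, with a change of -0.16 ± 0.33 (adjusted p = 0.8), and the log2 change of pax3a was -0.06 ± 0.29 (adjusted p = 0.92). Myogenin (myog) had 60.5 in batch 1 and 103, 171 and 97.3 in batch 2 at day 0 and 85.7 to 704 (median 117) at day 4 (0.53 ± 0.47, adjusted p = 0.52). The days overlapped for both, and the changes of myf5 (0.37 ± 0.28, adjusted p = 0.44) and myod1 (0.45 ± 0.33, adjusted p = 0.44) did not pass the test. Desmin (desma), the muscle intermediate filament, had 168 in batch 1 and 184, 351 and 137 in batch 2 at day 0 and 106 to 3794 (median 311) at day 4 (0.85 ± 0.65, adjusted p = 0.45). Its highest value, 3794, was that of day 4 B of batch 1, which was also the highest array for myog, acta1a (4059.8) and cav3 (624), whose changes over all arrays were 0.37 ± 0.49 (adjusted p = 0.68) and 0.04 ± 0.45 (adjusted p = 0.96). That array alone of the 10 showed the red reporter on its control probe set, with a signal of 9310 against at most 163 on the others. On day 7, 10 and 14 arrays the reporter gave 7796 to 17809 in batch 1 but 3.67 to 240 in batch 2. A low reporter signal in batch 2 therefore does not show how far the muscle cells had matured. Whether both batches carried the transgene was not tested. The log2 change of the adhesion molecule ncam1a was 0.50 ± 0.39 (adjusted p = 0.45). The chemokine receptor cxcr4a had signals of 314 in batch 1 and 1644, 1128 and 482 in batch 2 at day 0 and 15.1 to 787 (median 122) at day 4 and changed by -2.08 ± 0.44 (adjusted p = 0.014). Its days overlapped through day 4 A of batch 2, which exceeded day 0 of batch 1 and day 0 C.

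In the list of muscle progenitor and Notch genes 2 of 40 were higher and 3 lower, against 6.46% and 7.09% of all genes. The rises were the FGF receptor fgfr4 (1.99 ± 0.49), which muscle progenitors of the mouse express, and the heparan sulfate carrier sdc2 (1.85 ± 0.25). The falls were cxcl12a, cxcr4a and the Notch target her6 (-1.77 ± 0.34). Ligands, receptors and antagonists of growth factors were lower in 14 and higher in 4 of 114 genes, against 7.09% and 6.46% of all genes. The IGF-binding protein igfbp5b had signals of 2759 in batch 1 and 2248, 2484 and 2185 in batch 2 at day 0 and 131 to 295 (median 199) at day 4. It fell by 3.33 ± 0.29 (adjusted p = 0.00023). The 4 day 0 values lay close together and about an order of magnitude above day 4. Myostatin b (mstnb, -1.83 ± 0.35), the inhibitor of muscle growth, its antagonist follistatin (fsta, -2.66 ± 0.39), igfbp2a (-1.96 ± 0.27), the macrophage growth factor csf1b (-2.58 ± 0.48) and the growth factor igf2a (-1.32 ± 0.33) were lower too, and the BMP receptor bmpr1ab (1.59 ± 0.38), the Hedgehog transducer smo (1.61 ± 0.34) and the lymphatic growth factor vegfc (1.23 ± 0.33) higher. A second fsta probe set of similar brightness changed by -0.42 (adjusted p = 0.39) and was not called. Growth factor genes called lower numbered 4 without day 0 B of batch 2 or day 0 C or day 4 D of batch 2 and 5 on the 7 arrays labelled good.

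Matrix genes of connective tissue fell more often than they rose. Of 51 matrix proteins and enzymes 18 were lower and 3 higher, and of 21 collagens 5 were lower and 0 higher. Collagen VI α3 (col6a3) had signals of 3654 in batch 1 and 4694, 5047 and 6639 in batch 2 at day 0 and 195 to 606 (median 399) at day 4. It fell by 3.67 ± 0.33 (adjusted p = 0.00023). Collagen I α2 (col1a2) had signals of 18648 in batch 1 and 18049, 17781 and 22899 in batch 2 at day 0 and 1533 to 6972 (median 4835) at day 4. It fell by 2.27 ± 0.33 (adjusted p = 0.0024). Both had days that did not overlap, with day 4 A of batch 2 the lowest for col1a2. The collagens col10a1a (-2.74 ± 0.34) and col15a1b (-2.01 ± 0.39) were lower. Among other falls were tenascin N (tnn, -2.83 ± 0.32), spondin 2b (spon2b, -3.48 ± 0.31), the hyaluronan link protein hapln1a (-3.36 ± 0.35), matrilin 4 (matn4, -3.26 ± 0.39), periostin (postnb, -1.88 ± 0.32), laminin α4 (lama4, -1.57 ± 0.36), osteonectin (sparc, -1.21 ± 0.35) and the metalloproteinases mmp9 (-1.31 ± 0.36) and mmp13a. A second tnn probe set of similar brightness changed by -0.40 (limma's adjusted p = 0.42) and was not called. In run 2 the change of mmp9 was 0.07, while the other runs had falls. The rises were fibronectin (fn1a, 1.44 ± 0.40) and the collagen prolyl hydroxylases p4ha1b (2.11 ± 0.57) and p4ha2 (1.34 ± 0.34), each with overlapping days. Matrix proteins and enzymes called lower numbered 8 without day 0 B of batch 2, 9 without day 0 C or day 4 D of batch 2 and 11 on the 7 arrays labelled good. Collagens called lower numbered 3 without day 0 C or day 4 D of batch 2.

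Markers of other cell types were measured on day 0 arrays and fell in several lists. In bulk cultures fewer cells of a type and less RNA per cell cannot be told apart. For epidermis and other epithelium 15 of 38 genes were lower and 0 higher, against 7.09% lower of all genes. Their summed signal was 82919.7 to 130597 at day 0 and 28301 to 105093 at day 4. The keratin krt15 had signals of 3270.5 in batch 1 and 7417, 2947 and 4304 in batch 2 at day 0 and 49.3 to 298 (median 184) at day 4. It fell by 4.38 ± 0.35 (adjusted p = 0.00023). The days stood well apart, and the epithelial adhesion molecule epcam (-3.41 ± 0.67), krt5 (-2.62 ± 0.43), krt4 (-2.19 ± 0.34), krt91 (-4.07 ± 0.34), the claudin cldn7b (-3.13 ± 0.45) and E-cadherin (cdh1, -1.31 ± 0.36) fell also, while krt8 changed by -0.56 ± 0.34 (adjusted p = 0.33) and claudin i (cldni) by -1.21 ± 0.45 (adjusted p = 0.11). Epithelial genes called lower numbered 6 without day 0 B of batch 2 or day 0 C or day 4 D of batch 2 and 5 on the 7 arrays labelled good.

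For leukocytes and macrophages 8 of 39 genes were lower and 0 higher. The invariant chain cd74a of antigen presentation had signals of 10359 in batch 1 and 18843, 22672 and 18843 in batch 2 at day 0 and 1533 to 6530.3 (median 3734) at day 4. It fell by 2.20 ± 0.42 (adjusted p = 0.0082) without overlap. The actin bundler lcp1 (-1.77 ± 0.51), coronin coro1a (-1.37 ± 0.32), the oxidase subunit ncf1 (-2.14 ± 0.44), cd74b (-1.98 ± 0.34), the factor runx3 (-2.10 ± 0.33) and csf1b fell too. Other defining leukocyte genes were not called, with changes of -1.48 ± 0.47 (adjusted p = 0.069) for ptprc (CD45), -1.53 ± 0.58 (adjusted p = 0.12) for lysozyme (lyz), -0.12 ± 0.51 (adjusted p = 0.91) for myeloperoxidase (mpx), -0.69 ± 0.55 (adjusted p = 0.46) for csf1ra and -0.09 ± 0.39 (adjusted p = 0.92) for spi1b. The summed signal of the list was 86967 to 153448 at day 0 and 32189 to 102435 at day 4. These ranges overlapped, as did those of the epithelial list. The median change of the leukocyte list was 0.12 in batch 1 and -1.44 to -0.54 in the runs of batch 2, and -0.03 on the 7 arrays labelled good. Leukocyte genes called lower numbered 2 without day 0 B of batch 2, 3 without day 0 C or day 4 D of batch 2, 2 on the 7 arrays labelled good and 15 in batch 2 alone.

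Summed signals were 3004 to 13386 at day 0 and 1342 to 3176 at day 4 for endothelium, 2316 to 13419 at day 0 and 1089 to 1790.5 at day 4 for erythrocytes, and 18782 to 34048 at day 0 and 7125 to 17701 at day 4 for nerve and glia, where the days overlapped for endothelium alone. The fibroblast list summed to 104779 to 135476 at day 0 and 26218 to 105435 at day 4, overlapping by a narrow margin. Endothelial genes were lower in 6 of 15 cases and higher in 0, among them the fenestral protein plvapb (-2.64 ± 0.34), the VEGF receptor kdrl (-1.73 ± 0.49), the angiopoietin receptor tek (-1.69 ± 0.36), the factor gata2a (-1.58 ± 0.31) and the mannose receptor mrc1a (-2.19 ± 0.50), whereas tie1 changed by 0.25 ± 0.34 (adjusted p = 0.7). Erythrocyte genes were lower in 4 of 15 cases and higher in 0, although the preparation included lysis of red cells. The α-globin hbaa1 had signals of 1868 in batch 1 and 3647, 884 and 9722 in batch 2 at day 0 and 48 to 323 (median 182) at day 4. It fell by 3.58 ± 0.44 (adjusted p = 0.00099), and the anion exchanger slc4a1a fell by 1.99 ± 0.40 (adjusted p = 0.011). The β-globin hbba2 (-1.95 ± 0.53) and the carbonic anhydrase cahz (-2.29 ± 0.38) fell too. In batch 1, however, hbba2 changed by 0.05, and its days overlapped. The hbaa1 signal differed by an order of magnitude among the day 0 arrays of batch 2 and stayed above day 4 on each. The red cell genes alas2 (-0.32 ± 0.48, adjusted p = 0.73) and gata1a (-0.21 ± 0.39, adjusted p = 0.79) were not called. Nerve and glia genes were lower in 6 of 27 cases and higher in 1 (the tubulin tubb5, 1.21 ± 0.33). Myelin basic protein (mbpa) had signals of 9328 in batch 1 and 15255, 13479.9 and 13814 in batch 2 at day 0 and 459.9 to 6282 (median 935) at day 4. It fell by 3.05 ± 0.67 (adjusted p = 0.015), and the glial genes cldnk (-2.80 ± 0.50) and s100b (-2.51 ± 0.57) fell with it. For mbpa day 4 A of both batches lay nearest to day 0, and the neuronal gene elavl3 (-0.45 ± 0.36, adjusted p = 0.47) and the neural crest gene sox10 (-1.43 ± 0.48, adjusted p = 0.078) were not called. Of 23 fibroblast genes 7 were lower and 3 higher. Counts of these cell type lists from all compared arrays stand against 7.09% lower and 6.46% higher of all genes. Decorin (dcn) changed by -0.15 ± 0.44 (adjusted p = 0.87). The factor prrx1a (1.51 ± 0.38) was among the rises. Collagen I α1 (col1a1a) changed by -1.16 ± 0.34 (adjusted p = 0.05) and was not called, although a second, dimmer probe set was, at -2.44. Of 24 cartilage and bone genes 2 were lower and 0 higher, against 7.09% and 6.46% of all genes. Of 9 pigment cell genes 0 were lower and 0 higher. At an unadjusted p under 0.05 they were 1 lower and 0 higher, against 1153 and 1499 of all 8793 genes. The falls of the first list were col10a1a and sox9b (-1.74 ± 0.34), whose second, dimmer probe set changed by 0.47. The defining cartilage and bone genes col2a1a, sox9a, runx2b and sp7 and the pigment cell genes mitfa, dct, tyr and gch2 were not called, with changes between -0.32 and 1.03. Of 9 fat and smooth muscle genes, tagln (1.92 ± 0.50) was higher and mylka (-1.84 ± 0.43) and cfd lower. Endothelial genes called lower numbered 2 without day 0 A or day 4 A of batch 2, 1 without day 0 B of batch 2 or day 0 C or day 4 D of batch 2 and 1 on the 7 arrays labelled good. Erythrocyte genes called lower numbered 2 without day 0 B of batch 2 or day 0 C or day 4 D of batch 2 and 0 on the 7 arrays labelled good. Nerve and glia genes called lower numbered 3 without day 0 A or day 4 A of batch 2, 1 without day 0 B of batch 2, 2 without day 0 C or day 4 D of batch 2 and 1 on the 7 arrays labelled good. Fibroblast genes called lower numbered 4 without day 4 A of batch 1, day 0 A or day 4 A of batch 2, day 0 C or day 4 D of batch 2 or day 4 C of batch 2 and 4 with an offset of 16. Those called higher numbered 0 without day 0 A of batch 1, day 0 B of batch 2, day 0 C or day 4 D of batch 2 or day 4 C of batch 2, 1 without day 4 A of batch 1, 0 on the 7 arrays labelled good, 1 under the authors' scaling and 0 in batch 2 alone.

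The arrays of both days, labelled myogenic, carried markers of muscle and of other cell types together. The defining muscle genes ckma, tpma, mylpfa and actc1b fell as given above, tnnt3a changed by 0.49 ± 0.42 (adjusted p = 0.5), and acta1b has no probe set with its name here. Signals of myod1 lay between 14.8 and 132 on the 10 arrays, where the offset weighs most. The part of cells other than muscle cells in any of the changes above was not tested.

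**Figure D5:**
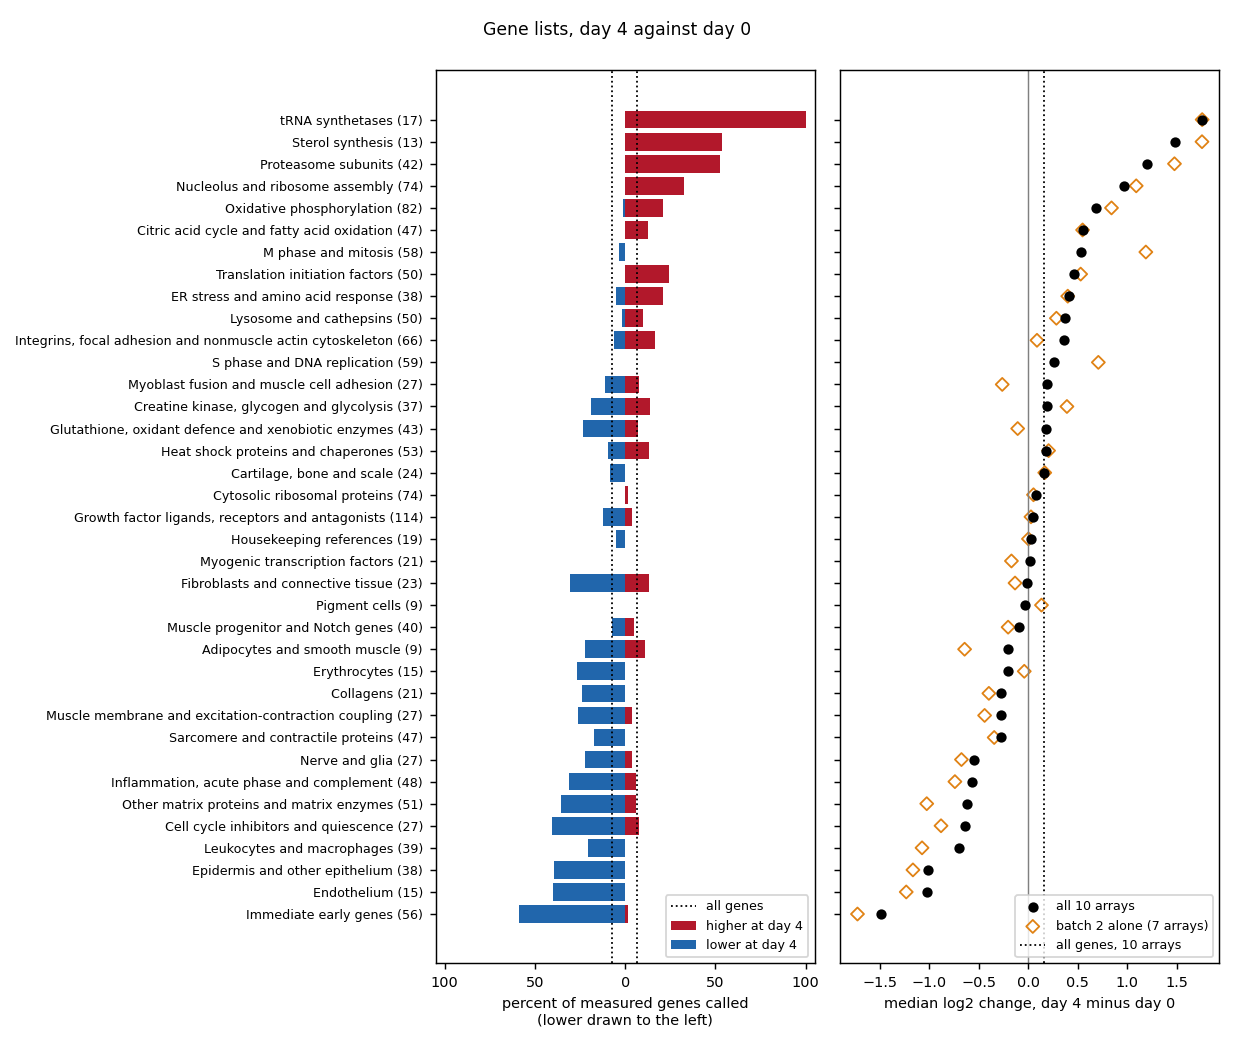
Left, share of the measured genes of each of 37 gene lists (number in parentheses) called higher or lower at day 4 in the fit of 10 arrays, as percent, with dotted lines at 6.46% and 7.09% for all genes. Right, median log2 change of each list over the 10 arrays (circles) and in batch 2 alone (diamonds), with a dotted line at 0.16 for all genes, where the M phase list shows the widest gap between both fits, 0.53 against 1.19.

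Oxidant defence genes fell more often than they rose. Of 43 genes 10 were lower and 3 higher, against 7.09% and 6.46% of all genes, so the share of rises lay near that of all genes. Selenoprotein P (selenop), which carries selenium between cells, had signals of 5248 in batch 1 and 6542, 4134 and 5769.7 in batch 2 at day 0 and 33.5 to 1152 (median 379.8) at day 4. It fell by 3.93 ± 0.47 (adjusted p = 0.00089). The glutathione peroxidases gpx1b (-3.20 ± 0.49) and gpx4a (-2.10 ± 0.29), which are selenoproteins as well, were lower, as was the glutathione transferase gstt1a (-2.03 ± 0.32). Peroxiredoxin 1 (prdx1), which reduces hydrogen peroxide with thioredoxin, had signals of 3222 in batch 1 and 3329, 2086 and 1812 in batch 2 at day 0 and 5998 to 21761 (median 10900.0) at day 4, a change of 2.06 ± 0.42 (adjusted p = 0.011). The days overlapped for neither selenop nor prdx1, and the thioredoxin reductase txnrd3 rose by 0.89 ± 0.25 (adjusted p = 0.041) and the peroxidase gpx8 by 1.24 ± 0.35 (adjusted p = 0.046). In run 2 gpx8 changed by -0.15, while the other runs had rises. Genes of this list called lower numbered 6 without day 0 A or day 4 A of batch 2, day 0 B of batch 2, day 0 C or day 4 D of batch 2 or day 4 B of batch 2 and 4 on the 7 arrays labelled good. Those called higher numbered 1 without day 0 A of batch 1, day 4 A of batch 1, day 4 B of batch 2 or day 4 C of batch 2, 0 without day 0 B of batch 2 or day 0 C or day 4 D of batch 2, 0 on the 7 arrays labelled good, 1 under the authors' scaling, 1 with an offset of 16 and 5 with an offset of 64.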

How the data were processed

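Biotin-labelled RNA of each array's cells was hybridized to an Affymetrix Zebrafish Genome Array, and the deposited values are intensity signals per probe set that the authors computed with MAS5 and scaled to one mean per array. The 2% trimmed mean was 500 on all arrays, although the labels name a target intensity of 1500 for batch 2. Each array was here given the averaged quantiles of 10 good arrays of batch 1 and analysed as log2(signal + 32). Detection calls of MAS5 were not used. Control probe sets (115) entered no test, which left 15502. Gene names came from the platform annotation. A single symbol was given for 10795 probe sets, several for 135 and none for 4572, and 10711 symbols were updated by gene number while 84 were kept. Each gene was taken from its brightest probe set, and in 0 of 1539 genes with several probe sets were these called in opposite directions. Besides the called probe set, a dimmer one (of similar brightness for fsta and tnn) was not called for actc1b, aga, coro1a, eif5b, epcam, fam210aa, fn1a, fsta, hapln1a, hsc70, idh3a, kif20a, lama4, laptm4b, manf, mylpfa, ndufaf1, npm1a, per2, qars1, runx3, sox9b, tnn, tpm4b, tubb5, txnrd3 and vldlr.

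Days were compared with limma 3.58.1 in R 4.3.3, with hybridization run as a block (5 residual degrees of freedom) and Benjamini-Hochberg adjustment over all probe sets. The number of arrays limits the precision. On simulated data for this comparison, over 15502 probe sets, the fit recovered 12% of 50 genes changed by 1 on the log2 scale, 88% of 50 changed by 2 and 100% of those changed by 3 or 4, with 13 false calls. Far fewer probe sets changed in the simulation than were called in the data, which makes its adjusted threshold stricter. These percentages therefore do not carry over to the data. No 2 arrays held identical values.

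The text names the 15 largest rises and falls among called genes with one sign in all 4 runs, up to 4 called genes of each sign per list by p, the study's genes and the defining cell type markers. Other named genes were chosen after their values were seen. The compared arrays and the gene lists were chosen with earlier results of these data known. No probe set here bears the names of 11 genes of this rule, among them acta1b, cdh5, hbba1 and pdgfra. Alternatives changed the block, offset, normalization, array weights, dim filter and arrays.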

Additional observations from a re-analysis of the deposited data

Results flagged for a closer look

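Among the genes whose arrays are given one by one, 84 groups of 4 or 6 arrays were checked for an array far from the others of its day, and 10 had one, where chance flags about 1 in 20 groups. Day 0 A of batch 1 was the highest day 0 array for rps27l (2557), acat2 (824), psmd8 (2351) and cdk1 (2439) and the lowest for egr1 (2436). Day 0 C of batch 2 was the lowest for tnfaip6 (263). Day 4 A of batch 2 was the lowest day 4 array for phgdh (563), eno1a (6542) and col1a2 (1533), and day 4 C of batch 2 the lowest for hbaa1 (48.0). Outside the main measurement, the control probe set of the red fluorescent protein gave 9310 on day 4 B of batch 1, above the day 0 arrays, which reached at most 93.7.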

How the results depend on the processing

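The counts of 718 higher and 981 lower probe sets became 1559 higher (1442 lower) when 31 arrays shared one fit, 1308 and 1542 with array weights, 50 and 158 with the failed day 0 array added, and 175 and 284 on the 7 good arrays with batch as the block. Leaving out single arrays gave 109 to 792 higher and 296 to 1172 lower probe sets (344 and 610 without day 0 A or day 4 A of batch 2, 130 and 359 without day 0 C or day 4 D of batch 2, and 471 higher without day 4 C of batch 2). Leaving out the only day 0 array of a run removed that whole run from the comparison of days, so these counts do not rest on one array each. Fewer arrays and a lost run explain part of these losses by construction, and the cause of the rest was not tested. Counts under a batch block, no block, a random run block (correlation 0.137), offsets of 16 and 64, quantiles of the 10 arrays, the authors' scaling and without dim probe sets ran from 524 to 1008 higher and from 684 to 1175 lower. Under the authors' scaling the median of all probe sets moved up by 0.17, and in batch 2 alone 1485 were higher and 941 lower (61.2% higher, against 39.1%). With the replicate letter of batch 2 as a block (replicate block) 594 were higher and 940 lower. Oxidative phosphorylation genes called higher numbered 5 under that block, 10 without a block, 47 with 31 arrays and 33 with array weights, against 17. The deviations of same-lettered arrays correlated at 0.222, 0.021 and -0.025, against -0.225 to 0.188 for arrays with different letters. With so few arrays per day these values cannot decide whether the letters pair the arrays. The test of a batch difference called 0 probe sets also with batch as the only block and under the authors' scaling (1063 and 926, and 1998 and 361, at an unadjusted p under 0.05). Of 226 named genes called, 0 reversed in any setting, and 84 were called in all settings but that with the failed array. These genes were called in the main fit and the settings reused its arrays or part of them, so a reversal was unlikely in advance. Signals near the offset hold changes of dim genes back. Changes near 1 were called for some genes, such as txnrd3 (0.89) and lamp1b (0.99). How often a change of 1 was missed in these data was not tested.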

Other observations

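Inflammation, acute phase and complement genes were lower in 15 and higher in 3 of 48 cases, against 7.09% and 6.46% of all genes. The chemokines ccl34b.1 (-3.50 ± 0.50) and ccl25b (-3.09 ± 0.35), which attract leukocytes, and complement factor D (cfd, -2.65 ± 0.49), a serine protease of the alternative pathway, fell, on limma's adjusted p as in the rest. The rises were serum amyloid A (saa, 2.56 ± 0.67), an acute phase protein, the ubiquitin-like isg15 (2.16 ± 0.40), which interferon induces, and transferrin (tfa, 1.73 ± 0.40), the iron carrier of plasma. Genes of this list called lower numbered 5 without day 0 B of batch 2, 7 without day 0 C or day 4 D of batch 2 and 5 on the 7 arrays labelled good. Those called higher numbered 1 without day 0 A or day 4 A of batch 2 or day 0 B of batch 2, 0 without day 0 C or day 4 D of batch 2 and 1 on the 7 arrays labelled good.

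Of 50 lysosomal genes 5 were higher and 1 was lower, against 6.46% and 7.09% of all genes, and 0 were higher with the replicate letter as a block. The proteases cathepsin K (ctsk, 1.63 ± 0.43) and cathepsin D (ctsd, 1.12 ± 0.32), the proton pump subunit atp6v1c1a (1.06 ± 0.27) and the membrane proteins lamp1b (0.99 ± 0.27) and laptm4b (1.05 ± 0.27) were the rises, and the glycan enzyme aga fell by 1.65 ± 0.33 (adjusted p = 0.011), with a second, dimmer aga probe set at 0.38 and not called. Of 27 genes of myoblast fusion and adhesion 2 were higher and 3 lower, against the same shares of all genes. The adhesion molecule jam2a, whose product takes part in fusion of zebrafish fast muscle, fell by 2.29 ± 0.33 (adjusted p = 0.0021) and the annexin anxa1a by 2.50 ± 0.56 (adjusted p = 0.018), and caveolin 2 (cav2, -1.31 ± 0.38) was lower. The hyaluronan receptor cd44a rose by 1.55 ± 0.35 (adjusted p = 0.019) and the adaptor crk by 1.00 ± 0.27 (adjusted p = 0.039). Lysosomal genes called higher numbered 1 without day 0 A of batch 1, day 4 A of batch 1, day 0 A or day 4 A of batch 2, day 0 B of batch 2 or day 4 C of batch 2, 0 without day 0 C or day 4 D of batch 2, 3 without day 4 B of batch 2, 1 on the 7 arrays labelled good, 1 under the authors' scaling, 1 in batch 2 alone and 3 with an offset of 16. Fusion genes called lower numbered 5 without day 0 A of batch 1, 7 without day 4 B of batch 1, 1 without day 0 A or day 4 A of batch 2, day 0 B of batch 2 or day 0 C or day 4 D of batch 2, 1 on the 7 arrays labelled good and 7 in batch 2 alone. Those called higher numbered 1 without day 0 A of batch 1, day 4 B of batch 1, day 0 A or day 4 A of batch 2, day 4 B of batch 2 or day 4 C of batch 2, 0 without day 0 B of batch 2 or day 0 C or day 4 D of batch 2, 0 on the 7 arrays labelled good, 1 under the authors' scaling, 1 in batch 2 alone and 1 with an offset of 16.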
